A study of Homo sapiens with 84 samples.

Results

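The NAP1L nucleosome assembly family comprises NAP1L1, NAP1L2, NAP1L3, NAP1L4 and NAP1L5, and its chromatin accessibility was read in 9 triple-negative breast cancer lines with ATAC-seq, an assay whose transposase, Tn5, inserts sequencing tags where DNA is open. A gene's value is the sum of read counts over the peaks that the authors' annotation assigns to its symbol within 10 kb of the transcription start site (TSS), set beside its single peaks. By this rule 4 of the 5 members had a value among 24455 genes, since NAP1L4 had no peak under its symbol, and NAP1L4 was therefore measured by position. The family was selected on the counts of NAP1L2 and NAP1L3, which were seen to be higher with treatment than with DMSO, so their differences from DMSO are given as a description, with no test. The combination of tazemetostat and ipatasertib and its DMSO control were given to all 9 lines: HCC1937, HCC1395, HCC1143, BT-549, BT-20, SUM-159PT, SUM-149PT, MDA-MB-231 and MDA-MB-468. The last 4 of these also had tazemetostat alone and ipatasertib alone. Each agent was used at 5 uM in medium with 2% serum, and cells were collected 24 hours after the last treatment. Tazemetostat was begun on day -5 and ipatasertib on day 0, as the labels state for MDA-MB-468, so that the agents differ in length of exposure as well as in target. Each line is a culture of one tumour's descendants, and the lines are the unit of replication below.

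NAP1 proteins are acidic histone chaperones that bind H2A-H2B dimers, carry them and help to place them on, or take them off, DNA as nucleosomes form and turn over. NAP1L1 and NAP1L4 are made in most tissues, whereas NAP1L2 and NAP1L3 are X-linked genes known mainly from neurons. NAP1L5 is an imprinted gene that lies inside an intron of HERC3 and is also best known from the brain. Tazemetostat inhibits EZH2, the enzyme of Polycomb repressive complex PRC2 that methylates histone H3 at silenced genes, and ipatasertib inhibits the AKT kinases of growth factor signalling.

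The 78 libraries, 3 for each of 26 groups, held 12292571 to 21459284 counts in peaks. Of 78 pairs of libraries of the same group, 75 differed by less than sampling noise, so the 3 libraries were summed to 1 sample and counted once in tests across lines. HCC1395 DMSO replicate 3 stood apart from its group (ratios of observed to sampling variance of 1.79 and 1.82, against a median of 0.787 over all pairs). Whether replicates came from separate cultures is not stated in the labels. The 7 breast epithelial markers summed to 87.6 to 308 CPM (counts scaled to 1e6 counts in peaks) in combination groups and 68.4 to 371 CPM in DMSO groups. Sums over the 4 immune markers were 37.3 to 58.2 CPM in combination groups and 36.8 to 59.99 CPM in DMSO groups. Sums over the endothelial markers were 23.3 to 49.6 CPM in combination groups and 24.1 to 51.4 CPM in DMSO groups, and no marker of these lists was at 0. CPM divides by all counts in peaks, whereas log2 folds use TMM scaling, and these scales can differ by as much as the smaller folds below. Overlap of libraries, for members and for all genes, was read on CPM. In SUM-159PT, for example, NAP1L1 lay below ipatasertib without overlap with tazemetostat, at means of 39.8 and 36.8 CPM. Its TMM log2 fold there was 0.05 (-0.05 to 0.14). Without HCC1395 DMSO replicate 3 the log2 folds of the combination over DMSO were -0.09 for NAP1L1, 1.27 for NAP1L2, 0.78 for NAP1L3, -0.11 for NAP1L4 and -0.03 for NAP1L5, and no call of a member was lost. A lower count can come from fewer cells with an open site or from less opening in each cell, and bulk counts do not tell these apart.

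All 5 genes lie on the minus strand in the hg38 coordinates of the files. NAP1L1 on chromosome 12 had 10 peaks within 10 kb, the TSS peak at chr12:76083681-76085496. NAP1L2 had 2, the TSS peak at chrX:73214167-73215318 and a smaller one at chrX:73215365-73215530. NAP1L3 had 1 peak, chrX:93672917-93674357, which covers the TSS. NAP1L5 also had 1, chr4:88697137-88698423. The RefSeq genes NAP1L2, NAP1L3 and NAP1L5 span 2553, 2649 and 1917 bp, against 48101 bp for NAP1L1 and 47893 bp for NAP1L4. The peaks at the NAP1L4 promoter were assigned to OSBPL5, whose TSS lies 172981 bp away. Taken by distance from the RefSeq TSS, NAP1L4 had 8 peaks, with chr11:2991513-2993224 on the TSS; this window also reaches the last exons of CARS1, and it was chosen after the data were seen. FAM133A begins 103 bp from the NAP1L3 gene on the other strand, so the NAP1L3 peak covers a shared promoter region.

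The bases just upstream of the TSS are shown for NAP1L2 and NAP1L3, the members on which the choice of the family rested, and for NAP1L4, which holds the most CG dinucleotides, with every CG dinucleotide in capitals. They are RefSeq sequence of build GRCh38.p14, on the gene's strand, 5′ to 3′, and end at the base before the TSS. NAP1L2 lies at chrX:73214852-73215101, NAP1L3 at chrX:93673579-93673680 (cut short where FAM133A begins) and NAP1L4 at chr11:2992330-2992579.
NAP1L2: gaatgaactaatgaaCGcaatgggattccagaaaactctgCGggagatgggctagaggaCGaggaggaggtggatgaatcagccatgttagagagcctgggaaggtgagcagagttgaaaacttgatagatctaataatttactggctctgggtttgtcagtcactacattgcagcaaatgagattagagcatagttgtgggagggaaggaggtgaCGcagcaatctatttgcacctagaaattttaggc
NAP1L3: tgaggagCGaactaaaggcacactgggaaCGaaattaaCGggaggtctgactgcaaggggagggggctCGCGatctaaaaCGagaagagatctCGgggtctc
NAP1L4: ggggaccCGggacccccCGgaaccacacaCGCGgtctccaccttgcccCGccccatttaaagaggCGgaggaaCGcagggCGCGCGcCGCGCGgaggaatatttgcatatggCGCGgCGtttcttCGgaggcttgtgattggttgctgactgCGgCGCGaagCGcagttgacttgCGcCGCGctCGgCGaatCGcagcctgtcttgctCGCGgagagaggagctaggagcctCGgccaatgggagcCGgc

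Over the 250 bases upstream of the TSS the 5 promoters differed widely in CG content. NAP1L2 held 4 CG dinucleotides and 45.6% G and C, and 29.3% of 35116 RefSeq promoter windows of this length held fewer CG. NAP1L3 and NAP1L5 held 16 each, NAP1L1 held 24 and NAP1L4 held 31, more than in 89.1% of the windows. The letters TGANTCA, a loose form of the AP-1 motif with any base at its centre, occurred 1 time in NAP1L2 and in no other member. The match reads tgaatca, with A at the centre where the usual AP-1 site has C or G. On either strand, 6.57% of the windows hold the loose form. CCAAT occurred 2 times in NAP1L4 only (32.0% of windows). GGGCGG, the GC box, occurred 1 time each in NAP1L1, NAP1L3 and NAP1L4 (42.6% of windows). Neither TATAAA (10.7% of windows) nor GTAAACA, the FOXO motif (2.98%), was found in any of the 5.

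In DMSO, NAP1L1 and NAP1L4 were open in every line, whereas NAP1L2, NAP1L3 and NAP1L5 were open in some lines and near closed in others. Per kb of peak width, so that genes can be compared, the median level over the 9 lines was 8.36 CPM for NAP1L1, 6.34 CPM for NAP1L4 and 5.33 CPM for NAP1L5. It was 0.735 CPM per kb for NAP1L3 and 0.297 CPM per kb for NAP1L2. NAP1L1 ranged from 17.6 CPM in BT-20 to 46.9 CPM in BT-549 and NAP1L4 from 19.6 CPM in HCC1143 to 58.6 CPM in MDA-MB-468, spans of 2.67-fold and 2.99-fold.

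NAP1L2 stood at 9.60 CPM in HCC1143 and at 0.145 to 0.822 CPM in the other 8 lines, where neighbours in the order differ by few counts. NAP1L3 was highest in HCC1395 at 7.11 CPM, followed by BT-549 at 5.65 CPM and MDA-MB-231 at 5.30 CPM. The libraries of BT-549 and MDA-MB-231 overlap, and those of HCC1395 lie above both. HCC1143 held 2.52 CPM and MDA-MB-468 1.06 CPM of NAP1L3, and it was under 1 CPM in SUM-149PT, SUM-159PT, HCC1937 and BT-20. NAP1L5 was near closed in BT-549, HCC1937 and BT-20 (0.480, 0.422 and 0.145 CPM) and lay at 6.49 to 9.33 CPM in the other 6. Thus HCC1143 was the line with an open NAP1L2, and BT-20 had the lowest mean for every member except NAP1L4. For NAP1L2 and NAP1L3 the BT-20 libraries overlapped those of HCC1937 at few counts, so the lowest line is not resolved for these genes.

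**Figure D1:**
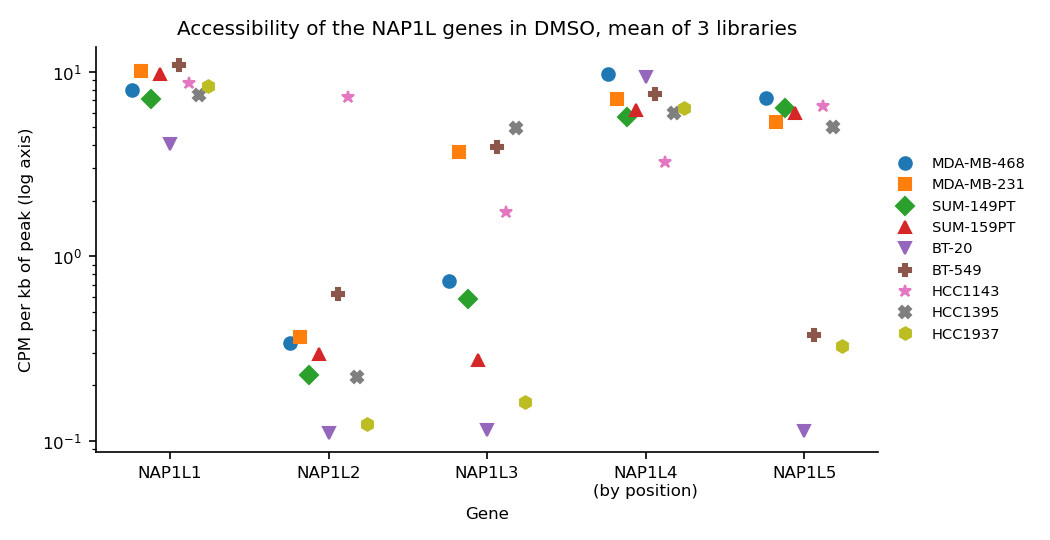
Accessibility of each NAP1L gene in DMSO, as CPM per kb of peak on a log axis, with 1 symbol for each cell line (mean of 3 libraries). NAP1L1 and NAP1L4 keep within 3-fold over the 9 lines, while NAP1L2, NAP1L3 and NAP1L5 spread over more than 40-fold.

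With the combination, NAP1L2, which in mice restrains the growth of the neural precursor pool, was higher than with DMSO in 8 of 9 lines. In 6 lines all 3 combination libraries lay above all 3 DMSO libraries, where 19.4% of all gene and line pairs did so. This contrast chose the gene and nothing is read from that count. BT-549 held 3.25, 3.35 and 3.04 CPM with the combination, against 0.817, 0.839 and 0.809 CPM with DMSO. MDA-MB-468 held 1.61, 1.17 and 1.18 CPM with the combination, against 0.688, 0.372 and 0.277 CPM with DMSO. MDA-MB-231 held 1.38, 1.56 and 1.92 CPM with the combination, against 0.330, 0.498 and 0.617 CPM with DMSO. The groups did not overlap in any of these 3 lines, and BT-549 ended at the highest level of them.

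SUM-149PT held 1.34, 0.758 and 1.14 CPM of NAP1L2 with the combination, against 0.405, 0.116 and 0.373 CPM with DMSO. HCC1395 held 1.12, 1.39 and 0.967 CPM with the combination, against 0.303, 0.402 and 0.176 CPM with DMSO. SUM-159PT held 0.803, 0.791 and 0.508 CPM with the combination, against 0.430, 0.359 and 0.385 CPM with DMSO. In these 3 lines the groups were again apart, by the least margin in SUM-159PT, where sums were 33 counts with the combination and 17 with DMSO.

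The groups overlapped in the other 3 lines. HCC1143, already open, held 8.46, 7.90 and 9.08 CPM of NAP1L2 with the combination, against 8.85, 10.01 and 9.93 CPM with DMSO. HCC1937 held 10, 6 and 3 counts with the combination, against 5, 0 and 4 with DMSO, and the library with 0 allows up to 0.159 CPM (3 counts in that library, counting error only). BT-20 held 8 counts over its 3 combination libraries and 7 over its 3 DMSO libraries, too few to show a difference at this depth.

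NAP1L2 log2 folds per line, from summed counts with TMM library sizes and 95% Clopper-Pearson intervals that cover counting error only, were largest in BT-549 at 2.01 (1.503 to 2.56). HCC1395 stood at 1.95, SUM-149PT at 1.87, MDA-MB-231 at 1.80 and MDA-MB-468 at 1.61. HCC1143 was the 1 line below 0, at -0.14 (-0.36 to 0.07). The mean over the 9 lines was 1.27 ± 0.79 (SD), and the fit across lines gave 1.28 ± 0.25 (SE). Nearly all of this lay in the TSS peak, at 1.23 ± 0.22 on the log2 scale, with the smaller peak, 679 bp away, under the count minimum at 0.109 CPM with the combination and 0.0752 CPM with DMSO. The nearest peak outside the window, at 48496 bp, held 0.353 CPM with the combination and 0.360 CPM with DMSO. The 5 NAP1L2 peaks beyond 10 kb summed to 0.734 CPM with the combination and 0.677 CPM with DMSO.

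**Figure D2:**
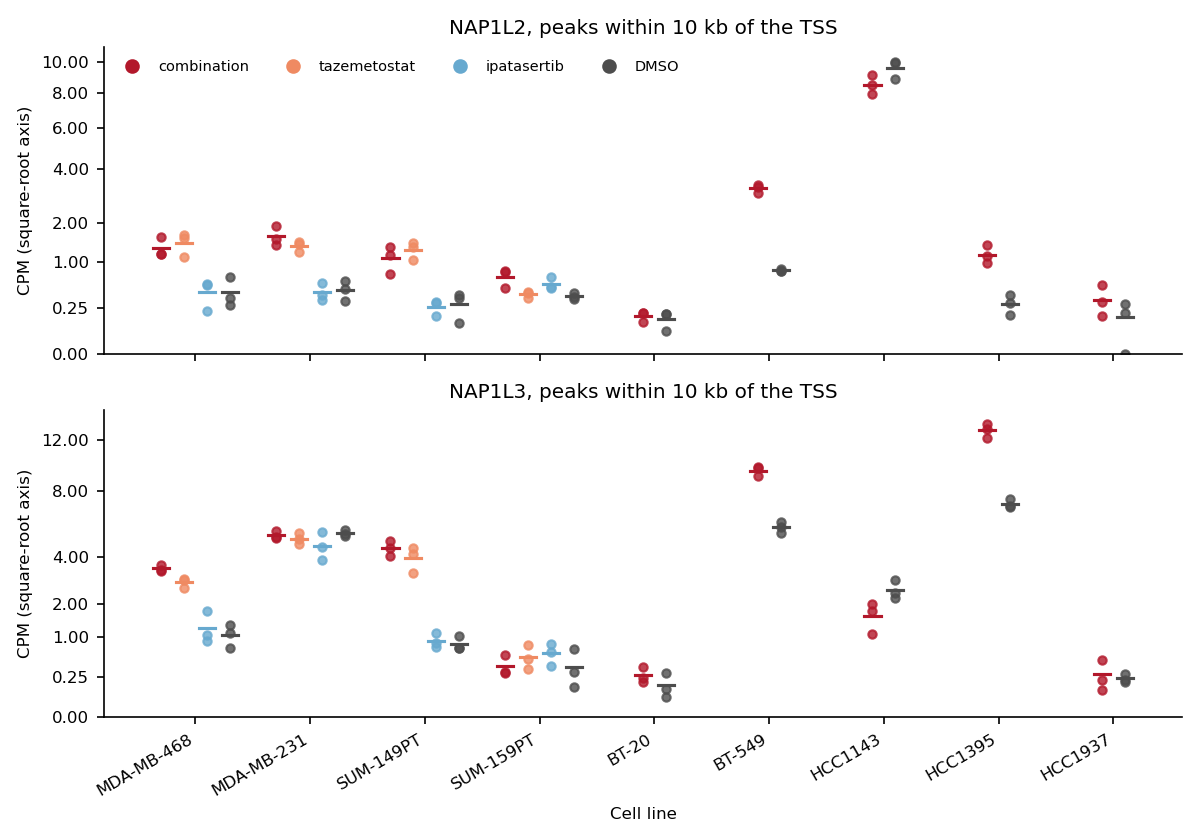
CPM of NAP1L2 (top) and NAP1L3 (bottom) in every library (points) with the group mean (bars), by cell line and treatment, on a square-root axis. NAP1L2 is open in HCC1143 under both treatments and higher with the combination in 6 other lines without overlap, while NAP1L3 is higher without overlap in 4 lines and lower in HCC1143.

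NAP1L3, the neuronal gene further along the X chromosome, was higher with the combination without overlap in 4 lines, lower without overlap in HCC1143, and overlapped DMSO in the other 4. Over all gene and line pairs 19.4% lay above and 29.8% below, and nothing is read from these counts, since NAP1L3 was selected on this contrast. SUM-149PT held 4.07, 4.49 and 4.88 CPM with the combination, against 1.04, 0.757 and 0.746 CPM with DMSO. MDA-MB-468 held 3.64, 3.38 and 3.36 CPM with the combination, against 1.32, 0.744 and 1.11 CPM with DMSO. These are the lines with the largest folds, at 2.45 (2.00 to 2.93) and 1.75 (1.31 to 2.20) on the log2 scale.

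BT-549 held 9.69, 9.79 and 9.07 CPM of NAP1L3 with the combination, against 5.31, 5.68 and 5.95 CPM with DMSO. HCC1395 held 13.0, 12.2 and 13.5 CPM with the combination, against 7.45, 6.96 and 6.93 CPM with DMSO. Both began open and had smaller folds, 0.81 (0.59 to 1.03) in BT-549 and 0.83 (0.64 to 1.02) in HCC1395.

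MDA-MB-231, also open, held 5.40, 5.01 and 5.10 CPM of NAP1L3 with the combination, against 5.27, 5.48 and 5.14 CPM with DMSO, a fold of 0.01 (-0.26 to 0.28). HCC1143 held 1.75, 2.01 and 1.09 CPM with the combination, against 2.21, 2.93 and 2.42 CPM with DMSO, a fold of -0.60 (-1.06 to -0.14). The sums of 13 to 19 counts with the combination, against 8 to 17 with DMSO, left BT-20, HCC1937 and SUM-159PT unresolved. The mean log2 fold over lines was 0.72 ± 0.92 (SD) and the fit gave 0.76 ± 0.28 (SE).

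In MDA-MB-231 the NAP1L2 fold was 1.80 (1.08 to 2.58) and the NAP1L3 fold 0.01 (-0.26 to 0.28), and the difference between the genes was not tested. Across the 26 groups the log2 CPM of the pair had a Pearson correlation of 0.53, over points that share lines and depth. The 17 NAP1L3 peaks beyond 10 kb summed to 1.99 CPM with the combination and 1.97 CPM with DMSO. In SUM-149PT these distal peaks held 265 counts with the combination and 216 with DMSO, a log2 fold of 0.39 (0.13 to 0.66), and in MDA-MB-468 147 and 115, 0.44 (0.08 to 0.81). The other 7 lines lay below 0, from -0.80 (-1.91 to 0.25) in HCC1143 to -0.01 (-0.38 to 0.36) in BT-20, with 0 inside each interval.

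**Figure D3:**
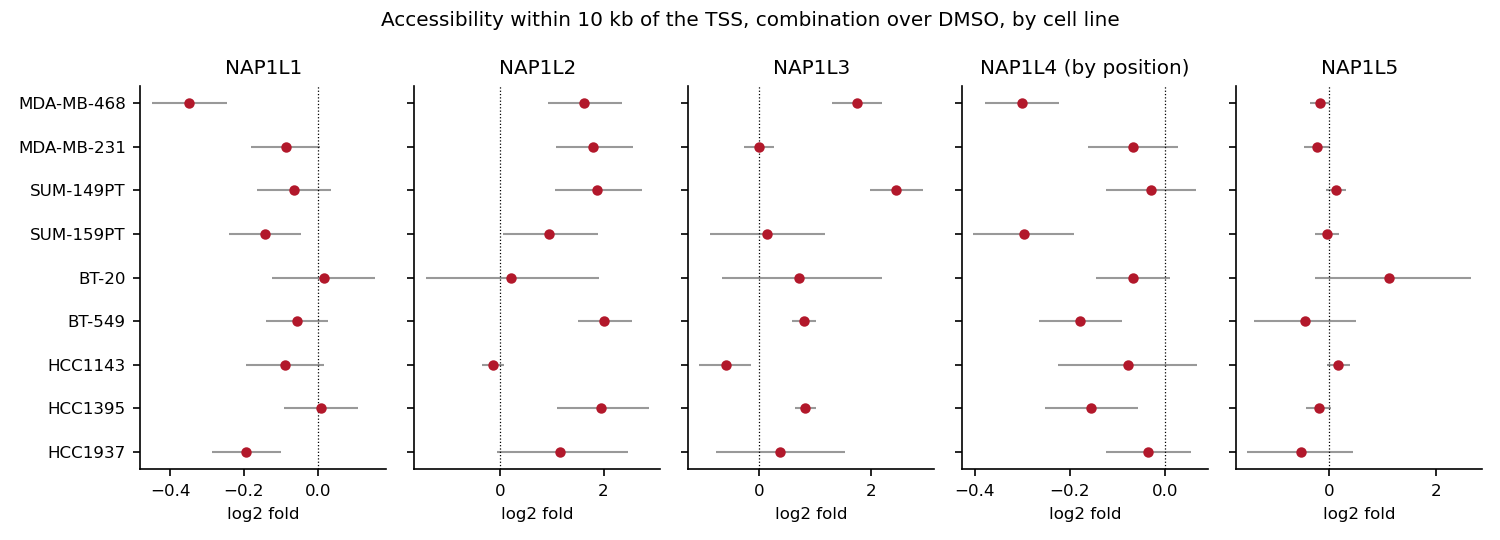
Log2 fold of the combination over DMSO in each cell line for the 5 members (points) with 95% Clopper-Pearson intervals (bars), each panel on its own scale. NAP1L2 and NAP1L3 reach 2.01 and 2.45, while NAP1L1 and NAP1L4 lie between -0.35 and 0.02.

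Single agents were compared in the 4 lines that had them. With tazemetostat alone, MDA-MB-468 held 1.66, 1.59 and 1.11 CPM of NAP1L2, against the DMSO values above, a log2 fold of 1.78 (1.11 to 2.4996). SUM-149PT held 1.34, 1.44 and 1.04 CPM and a fold of 2.12 (1.34 to 2.98), and MDA-MB-231 1.46, 1.41 and 1.21 CPM and a fold of 1.60 (0.86 to 2.39). These 3 lines lay above DMSO without overlap, where 17.9% of gene and line pairs did so with tazemetostat. NAP1L2 was selected for such rises, and nothing is read from this count. SUM-159PT held 0.458, 0.439 and 0.365 CPM and overlapped DMSO, at 0.26 (-0.75 to 1.28).

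With ipatasertib alone NAP1L2 stayed within 0.165 to 0.694 CPM in all 12 libraries, against 0.116 to 0.688 CPM with DMSO. SUM-159PT was the 1 line in which ipatasertib lay above DMSO without overlap, at 0.510, 0.694 and 0.528 CPM with ipatasertib, where 10.2% of gene and line pairs did so. Its interval, -0.38 to 1.53 on the log2 scale, included 0. The fits gave NAP1L2 1.53 ± 0.32 with tazemetostat and 0.11 ± 0.35 with ipatasertib against the same DMSO libraries (SE, 4 lines).

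NAP1L3 with tazemetostat alone held 3.24, 4.17 and 4.49 CPM in SUM-149PT, a log2 fold over DMSO of 2.30 (1.84 to 2.78). In MDA-MB-468 it held 2.94, 3.01 and 2.63 CPM, a fold of 1.51 (1.07 to 1.97). Both lay above DMSO without overlap, as did 17.9% of all gene and line pairs, and nothing is read from this count. In MDA-MB-231 the fold was 0.00 (-0.27 to 0.28), from 220 counts with tazemetostat and 232 with DMSO. With ipatasertib NAP1L3 overlapped DMSO in all 4 lines, and the fits gave 1.09 ± 0.42 with tazemetostat and 0.15 ± 0.43 with ipatasertib.

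Tazemetostat was then set against ipatasertib. The tazemetostat libraries are among those on which NAP1L2 and NAP1L3 were selected, so for these genes the contrast is again a description, with no test. NAP1L2 stood higher with tazemetostat by 1.42 ± 0.32 on the log2 scale (SE over 4 lines), and in 3 of the 4 lines. In this contrast 13.6% of 23907 genes were called higher and 24.2% lower in the edgeR test. MDA-MB-468 held 82 counts with tazemetostat and 24 with ipatasertib, MDA-MB-231 60 and 20, SUM-149PT 72 and 13, and SUM-159PT 20 and 26. The 3 higher lines were apart without overlap, where 19.5% of gene and line pairs were, and SUM-159PT lay below without overlap, where 42.2% were. Nothing is read from these counts. The difference was 1.01 ± 0.34 with abundance-trended offsets and ran from 1.15 ± 0.39 without SUM-149PT to 1.91 ± 0.20 without SUM-159PT.

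NAP1L3 differed between tazemetostat and ipatasertib by 0.94 ± 0.42 (SE over 4 lines, a description). It was 0.52 ± 0.44 with abundance-trended offsets and ran from 0.54 ± 0.41 without SUM-149PT to 1.23 ± 0.47 without MDA-MB-231. Its folds were 2.17 in SUM-149PT and 1.28 in MDA-MB-468, against 0.20 in MDA-MB-231 and -0.02 in SUM-159PT. Between the combination and tazemetostat no gene passed the threshold (0 of 23907 genes, 0% called, in edgeR; 1038 at an unadjusted p under 0.05; 2 in DESeq2). NAP1L2 differed by 0.06 ± 0.29 and NAP1L3 by 0.08 ± 0.40 between the combination and tazemetostat (SE). In that comparison all 3 combination libraries lay above in 15.3% of gene and line pairs and below in 9.03%. NAP1L2 lay above in SUM-159PT (33 counts with the combination and 20 with tazemetostat), NAP1L3 above in MDA-MB-468 (180 and 162), and neither below in any line.

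**Figure D4:**
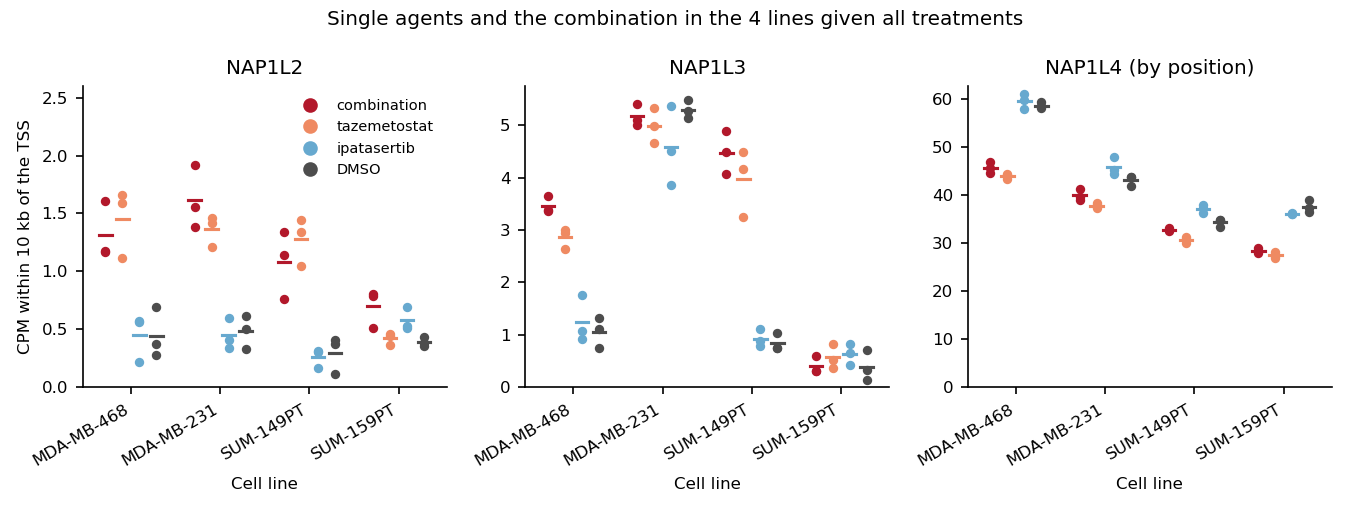
CPM of NAP1L2, NAP1L3 and NAP1L4 in every library (points) with group means (bars) for the combination, tazemetostat, ipatasertib and DMSO in 4 cell lines. NAP1L2 is higher with the combination and tazemetostat in MDA-MB-468, MDA-MB-231 and SUM-149PT, and NAP1L4 is lower with tazemetostat than with DMSO in all 4.

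NAP1L4, a chaperone found in most tissues, fell with the combination (log2 fold over DMSO -0.14 ± 0.03 SE, adjusted p = 0.0156, edgeR quasi-likelihood test) and was lower in 9 of 9 lines. In this contrast 17.8% of 23446 genes were called lower and 10.7% higher. Its libraries lay below DMSO without overlap in 5 lines, where 29.8% of gene and line pairs did so. The widest gap was in MDA-MB-468, with 45.6, 46.9 and 44.6 CPM with the combination, against 59.3, 58.5 and 58.1 CPM with DMSO. SUM-159PT held 28.4, 29.0 and 27.9 CPM with the combination, against 36.5, 37.4 and 38.8 CPM with DMSO. Both folds were -0.30, and the others ran from -0.18 in BT-549 to -0.03 in SUM-149PT. The call held with each of the 9 lines left out (adjusted p = 0.0202 to 0.0400). Log2 folds were smaller with peaks within 1 kb of the TSS (-0.09, adjusted p = 0.0123) and with abundance-trended offsets (-0.08, adjusted p = 0.0259). NAP1L4 was run in fewer settings than NAP1L1. It was not run with a replicate left out of all lines, nor in the lines with single agents alone. The NAP1L1 call, given below, was lost in runs of both kinds, so the stability of these calls cannot be compared.

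With tazemetostat alone NAP1L4 fell by 0.21 (-0.21 ± 0.04 SE, n = 4 lines, adjusted p = 0.00878) and was lower without overlap in 4 of 4 lines. In this contrast 18.7% of genes were called lower and 9.86% higher, and 41.0% of gene and line pairs lay below without overlap. Against ipatasertib it was lower by 0.25 (-0.25 ± 0.04 SE, adjusted p = 0.00278), also without overlap in 4 of 4 lines, where 24.2% of genes were called lower and 42.2% of gene and line pairs lay below. In SUM-149PT, for example, it held 30.7, 31.3 and 30.1 CPM with tazemetostat, 36.3, 37.9 and 37.3 CPM with ipatasertib and 33.4, 34.8 and 34.7 CPM with DMSO. Scaling by total counts moved the median of all genes from -0.02 to -0.12 for tazemetostat against DMSO, with 1924 genes higher and 8456 lower in place of 2358 and 4470, and NAP1L4 to -0.31. For tazemetostat against ipatasertib it gave 2581 higher and 8798 lower in place of 3263 and 5791, and NAP1L4 stood at -0.35. The calls were lost in fits of the 2 treatments alone (adjusted p = 0.0777 against DMSO and 0.0867 against ipatasertib). The one against DMSO was also lost without MDA-MB-468 (0.0517) or SUM-159PT (0.0719).

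With ipatasertib alone no gene passed the threshold across the 4 lines (0% called in edgeR, 537 at an unadjusted p under 0.05, 0 in DESeq2). NAP1L4 differed from DMSO by 0.04 ± 0.04 and NAP1L1 by -0.05 ± 0.04 (SE). NAP1L4 lay above DMSO without overlap in MDA-MB-231 and SUM-149PT and below in SUM-159PT, where 10.2% of gene and line pairs lay above and 9.82% below.

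NAP1L1, a chaperone made in most tissues, fell with the combination by 0.11 (-0.11 ± 0.04 SE, adjusted p = 0.0407) and was lower in 7 of 9 lines. MDA-MB-468 held 26.2, 25.9 and 26.4 CPM with the combination, against 34.6, 34.5 and 34.9 CPM with DMSO. HCC1937 held 30.3, 30.5 and 32.4 CPM with the combination, against 35.7, 36.0 and 36.8 CPM with DMSO. In HCC1395 and BT-20, by contrast, the groups overlapped and folds were 0.01 and 0.02. The call was lost without any 1 of 7 lines (adjusted p up to 0.101), without replicate 1 (0.151), in the 4 lines with single agents alone (0.199), with abundance-trended offsets (0.138) and with peaks within 1 kb of the TSS (-0.02 ± 0.02, adjusted p = 0.610). With tazemetostat alone NAP1L1 differed by -0.12 ± 0.04 (adjusted p = 0.0679), which passed with DESeq2 (0.0239), DESeq2 size factors (0.0469), total counts (0.00313) and without replicate 3 (0.0407).

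Single peaks were then read for both genes. The called ones lay inside the genes and the TSS peaks did not pass, but differences between peaks were not tested. Of the 10 NAP1L1 peaks, 5 passed the count minimum, and all 5 had negative log2 folds. The peak chr12:76080070-76080510, in intron 1 and 4225 bp into the gene, fell by 0.73 (-0.73 ± 0.19 SE, adjusted p = 0.0306) and averaged 1.12 CPM with the combination and 1.98 CPM with DMSO. The TSS peak, at 27.8 CPM with the combination and 29.4 CPM with DMSO, differed by -0.09 ± 0.06 (adjusted p = 0.341). Of the 8 NAP1L4 peaks, 7 passed the minimum and had negative folds. Its peak chr11:2991000-2991353, 976 bp into the gene, fell by 0.52 (-0.52 ± 0.13 SE, adjusted p = 0.0291), and the TSS peak differed by -0.14 ± 0.06 (adjusted p = 0.142). The called NAP1L4 peak averaged 1.73 CPM with the combination and 2.48 CPM with DMSO, and the TSS peak 26.2 and 28.5 CPM. Of 410603 peaks tested, 2.74% were called lower. Both calls were lost without replicate 1, the NAP1L1 one also without replicate 2 (adjusted p = 0.0595 to 0.0664). The share of all tested peaks with a negative fold was not taken, so nothing is read from the shared sign. Peaks were also scaled apart from genes. NAP1L5, which has 1 peak, stood at -0.11 in the peak fit and at -0.05 in the gene fit.

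**Figure D5:**
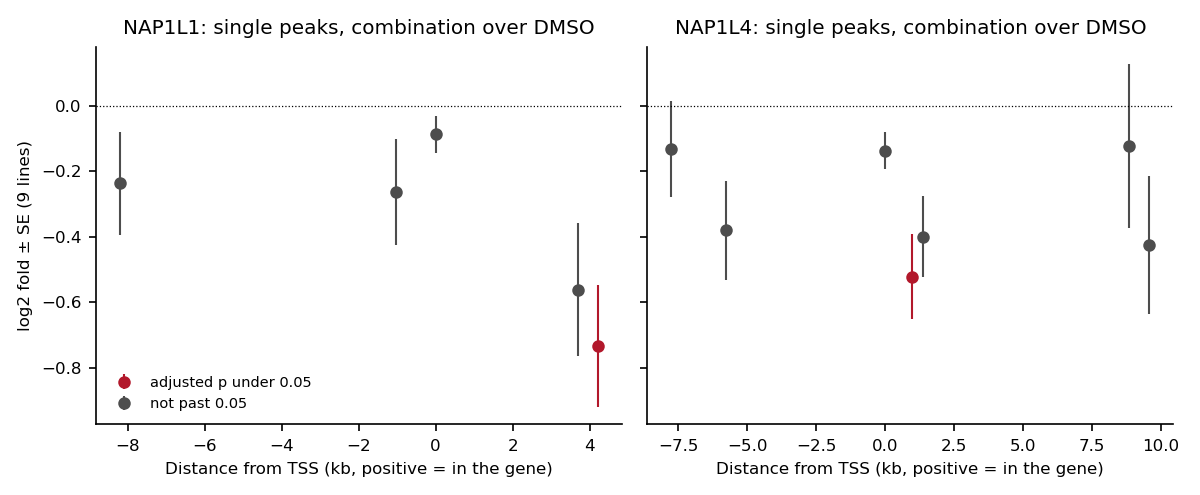
Log2 fold of the combination over DMSO (points, with SE bars, 9 cell lines) for each single peak of NAP1L1 and NAP1L4 that passed the count minimum, by distance from the TSS in kb. All 12 lie below 0, and the peaks in red, at -0.73 and -0.52, passed an adjusted p of 0.05. The share of all tested peaks below 0 was not taken.

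NAP1L5 did not pass the threshold in any of the 5 comparisons across lines. With the combination it differed from DMSO by -0.05 ± 0.12 (SE, adjusted p = 0.754), and tazemetostat differed from ipatasertib by -0.06 ± 0.09 (adjusted p = 0.581). In the 3 lines where it was near closed it held 15 to 19 counts with the combination and 7 to 24 with DMSO, and none of these intervals excluded 0. In SUM-159PT it held 5.56, 5.64 and 5.42 CPM with tazemetostat, against 8.45, 7.54 and 7.18 CPM with DMSO, a fold of -0.32 (-0.56 to -0.08), and the combination in that line held 7.49, 6.57 and 7.04 CPM. The combination over tazemetostat there was 0.33 (0.09 to 0.56).

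The response to the combination differed between lines for NAP1L1, NAP1L4 and NAP1L5 in an F test of the interaction between line and treatment, fitted to single libraries (adjusted p = 4.89e-05, 2.3e-06 and 0.0289). That test called 73.7% of 23674 genes. As the libraries of most groups differ by less than sampling noise (all except HCC1395 DMSO and, at a ratio of 1.03, HCC1937 DMSO), its p-values cover little more than counting error. Without replicate 2 or replicate 3 the calls for NAP1L1 (adjusted p = 0.1295 and 0.108) and NAP1L5 (0.141 and 0.383) were lost, and NAP1L4 was not run with a replicate left out.

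The pseudogene NAP1L6P lies 86.8 kb from NAP1L2 on the X chromosome. Its order of lines in DMSO also began with HCC1143, at 15.8 CPM, against 2.56 CPM in SUM-159PT and at most 0.724 CPM elsewhere. In MDA-MB-468 it held 62 counts with the combination, 79 with tazemetostat, 14 with ipatasertib and 28 with DMSO. In SUM-149PT it held 37 counts with tazemetostat and 13 with DMSO. In SUM-159PT, in contrast, it held 73 counts with the combination, 66 with tazemetostat and 111 with DMSO, a log2 fold of the combination over DMSO of -0.61 (-1.06 to -0.18). HCC1937 held 16 counts with the combination and 32 with DMSO, -0.93 (-1.89 to -0.02), and BT-549 44 and 24, 0.64 (-0.10 to 1.43). Across lines NAP1L6P differed by 0.03 ± 0.23 with the combination (adjusted p = 0.925) and by 0.86 ± 0.42 between tazemetostat and ipatasertib (adjusted p = 0.124).

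Beside NAP1L6P, 6 genes with a TSS within 200 kb of a member had a value in the combination fit. PHLDA1, a pleckstrin homology protein 52909 bp from NAP1L1, fell by 0.10 (-0.10 ± 0.03 SE, adjusted p = 0.0450), where 17.8% of all genes were called lower. The others, LNCOG near NAP1L1, OSBPL5 near NAP1L4, and HERC3, FAM13A and PYURF near NAP1L5, did not pass, with log2 folds from -0.08 to 0.15. Between tazemetostat and ipatasertib FAM13A fell by 0.10 (-0.10, adjusted p = 0.0129) and PYURF by 0.13 (-0.13, adjusted p = 0.0259), where 24.2% of all genes were called lower. Apart from NAP1L6P, the neighbours of NAP1L2 and NAP1L3 within that distance had no value.

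Other histone chaperones were read from lists, in which the members are not counted. Of 15 tested chaperones of H2A-H2B, 6 fell and 0 rose with the combination, with a median log2 fold of -0.10, against -0.02 over all genes, of which 17.8% were called lower and 10.7% higher. SUPT16H, the large subunit of the FACT complex, fell by 0.21 (-0.21 ± 0.03), NPM3 by 0.19 (-0.19 ± 0.04), SET, a relative of the NAP1 proteins, by 0.17 (-0.17 ± 0.03) and NPM1, nucleophosmin, by 0.17 (-0.17 ± 0.03; SE, adjusted p = 0.00334 to 0.00975). Between tazemetostat and ipatasertib 10 of the 15 fell and 0 rose, where 24.2% of all genes were called lower. With abundance-trended offsets 6 of the 15 fell, where 2915 of all genes were called lower in place of 5791. Of 16 tested chaperones of H3-H4, 9 fell and 0 rose with the combination, against the same 17.8% and 10.7% over all genes, with a median of -0.12. RBBP4, a histone-binding subunit shared by CAF-1 and PRC2, fell by 0.72 (-0.72 ± 0.16, adjusted p = 0.00990) on a low sum (log2 CPM of 0.82). DNAJC9 fell by 0.16, UBN1 of the HIRA complex by 0.15 and NASP by 0.15 (-0.16 ± 0.03, -0.15 ± 0.04 and -0.15 ± 0.03, adjusted p = 0.00496 to 0.0282).

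Neurons and imprinting, for which NAP1L2, NAP1L3 and NAP1L5 are known, were read in the same way. Of 22 neuronal marker genes tested, 6 rose and 0 fell with the combination, with a median of 0.16. Of all genes, 10.7% were called higher and 17.8% lower. With total counts 4 of the 22 rose, where 2080 of all genes were called higher in place of 2502. NEFL, the light neurofilament, rose by 1.04 ± 0.25, GAP43, a growth cone protein, by 0.90 ± 0.19, SNAP25, of the synaptic vesicle fusion complex, by 0.25 ± 0.07 and MAP2, a dendritic microtubule protein, by 0.23 ± 0.04 (SE, adjusted p = 0.00489 to 0.0235). The summed level of the 25 markers was 218 to 474 CPM in combination groups and 223 to 481 CPM in DMSO groups, and none of them was at 0. Of 16 imprinted genes tested, 5 rose and 2 fell, beside the same shares over all genes. Their median was -0.0030 and took the other sign, 0.04, with abundance-trended offsets. IGF2, a fetal growth factor, rose by 0.83 ± 0.17, DLK1 by 0.61 ± 0.16, GNAS by 0.45 ± 0.15 and PLAGL1 by 0.31 ± 0.05 (SE, adjusted p = 0.00386 to 0.0395). Of the breast epithelial markers EPCAM fell by 0.31 (-0.31 ± 0.09, adjusted p = 0.0253) and the other 6 of 7 did not pass. SPI1 of the immune list fell by 0.10 (-0.10 ± 0.03, adjusted p = 0.0269), and CDH5 and PECAM1 of the endothelial list differed by 0.07 ± 0.08 and -0.05 ± 0.06 (adjusted p = 0.538 and 0.571).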

How the data were processed

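Read counts over 861439 peaks in 78 libraries were deposited by the authors, with peaks called by MACS2, reads counted with featureCounts and the genome build hg38, per the submitters' processing notes; the aligner is not given in the sources used here. Another 6 samples of the 84 labelled, the combination and DMSO groups of a further line, HCC1806, were not analysed here. Counts of peaks assigned to a symbol within 10 kb of its TSS were summed to genes. The 3 libraries of a group were summed to 1 sample. Genes were tested with edgeR 4.0.16 (R 4.3.3; filterByExpr minimum count 10, TMM, robust quasi-likelihood test, cell line as block), with Benjamini-Hochberg adjustment over all genes and a threshold of 0.05. DESeq2 1.42.0 was an alternative. The interaction of line and treatment was tested with an F test on single libraries. The tests were also run on simulated counts, with genes of higher counts than NAP1L2 and with folds larger than those of NAP1L1 and NAP1L4. That run does not cover these genes. Gene names and promoter sequences came from RefSeq tables, and 25573 of 25871 gene IDs matched. Named genes are the members, their peaks, neighbours within 200 kb, the 5 genes most like NAP1L2 and NAP1L3, and up to 4 called genes of each list, or the 2 with the largest change where none was called. Members and lists were chosen with earlier results of these data known. NAP1L4 by position and its alternatives were added after the data were seen.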

Additional observations from a re-analysis of the deposited data

Results flagged for a closer look

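Of 35 groups of lines screened, 3 held a value far from the rest. The screen's rate of about 1 in 20 assumes normally distributed values, and CPM is skewed over lines. The family was also selected on NAP1L2 counts, so nothing is read from the number flagged. NAP1L2 in HCC1143 stood at 8.48 CPM with the combination, against 0.170 to 3.21 CPM in the other lines, and at 9.60 CPM with DMSO, against 0.145 to 0.822 CPM. The NAP1L5 log2 fold of the combination over DMSO was 1.12 in BT-20, from 15 counts with the combination and 7 with DMSO, against -0.51 to 0.18 in the other lines.

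The response to the combination differed between lines in the edgeR F test, with adjusted p-values of 4.89e-05 for NAP1L1, 2.3e-06 for NAP1L4 and 0.0289 for NAP1L5. That test called 73.7% of all genes, and the calls for NAP1L1 and NAP1L5 were lost without replicate 2 or 3 (adjusted p = 0.108 to 0.383), while NAP1L4 was not run with a replicate left out. Some differences between lines were seen without a test, from all libraries of 1 line moving against those of another. The combination over DMSO in HCC1143 gave -0.60 (-1.06 to -0.14) for NAP1L3 and 0.18 (-0.03 to 0.39) for NAP1L5. Over all gene and line pairs 29.8% lay below and 19.4% above. Ipatasertib over DMSO gave -0.0627 (-0.16 to 0.04) for NAP1L4 in SUM-159PT, where 9.82% of pairs lay below. Tazemetostat over ipatasertib gave -0.29 (-1.21 to 0.60) for NAP1L2 in SUM-159PT, where 42.2% of pairs lay below. Of these intervals only that of NAP1L3 excludes 0. The differences between lines were not tested.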

How the results depend on the processing

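The fits of tazemetostat and ipatasertib rest on 4 lines, and calls in them depended on the settings. The combination against DMSO called 6674 genes, 4318 to 6511 with a line or replicate left out (4318 without BT-549) and 0 in the 4 lines alone. Tazemetostat against DMSO called 6828 genes, 10380 with total counts, 3792 with abundance-trended offsets, 4272 with peaks within 1 kb, 0 in a fit of the 2 treatments alone and 1407 to 7464 with a line or replicate left out (2387 without MDA-MB-468, 3573 without SUM-149PT, 1407 without SUM-159PT). Tazemetostat against ipatasertib called 9054, 4562 with trended offsets, 1 in a fit of the 2 treatments alone and 4155 to 8992 with a line or replicate left out (4155 without MDA-MB-468, 5188 without SUM-149PT, 4634 without SUM-159PT). A fit of the 2 treatments alone called 11 genes for ipatasertib against DMSO and 42 for the combination against tazemetostat, where DESeq2 called 2. The NAP1L2 log2 difference of tazemetostat and ipatasertib was 1.01 with trended offsets, 1.42 in the fit of the 2 treatments alone and 1.15 to 1.91 with a line or replicate left out. Directions turned for NAP1L5 with the combination without BT-549 (0.0013; -0.0816 to 0.0013 over lines and replicates left out), NAP1L1 between tazemetostat and ipatasertib with trended offsets (0.0439), NAP1L1 between combination and tazemetostat with peaks within 1 kb (0.0282) or without replicate 2 (-0.0484 to 0.0050 with a line or replicate left out), and NAP1L5 in that comparison without SUM-159PT (-0.0233 to 0.113 with a line or replicate left out); none of these passed the threshold. The described NAP1L2 value also turned for ipatasertib against DMSO with peaks within 50 kb (-0.0023) or without SUM-159PT (-0.0921), and for the combination against tazemetostat without replicate 3 (-0.0633), MDA-MB-231 (-0.0089) or SUM-159PT (-0.0580). The causes were not tested. Same-numbered libraries did not deviate together (27 pairs, correlations -0.114 to 0.0489), and with a replicate block the F test called 17450 genes in place of 17457. Counts of 7 to 38 per DMSO group limit NAP1L2 in every line except HCC1143.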

Other observations

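Over the 26 groups, the genes whose log2 CPM was most like that of NAP1L2 among 14203 ranked were CR1 (Pearson r = 0.87), SLITRK3 (0.83), GRIA4 (0.82), NPFFR2 (0.82) and PTPRQ (0.82). Those most like NAP1L3 among 14202 were FOXP2 (0.94), FLRT1 (0.87), ACTN3 (0.84), CACNA2D1 (0.83) and FOXL2NB (0.83). These are descriptions over groups that share lines and depth. With the combination, log2 folds were 0.44 for CR1 and 0.93 for GRIA4, a glutamate receptor subunit. FOXP2, a transcription factor of the developing brain, stood at 0.55 and ACTN3 at 0.22. Nothing is read from these folds, since the ranked groups include those on which NAP1L2 and NAP1L3 were selected.

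Of 764 other X-linked genes tested, 96 rose and 83 fell with the combination, 12.6% and 10.9%, where 10.7% and 17.8% of all genes did, with a median log2 fold of 0.02, against -0.02 over all genes. The X-linked median took the other sign with total counts, at -0.0170 (83 rose and 109 fell). Over all genes it was then -0.0538, with 2080 genes called higher and 5281 lower. With abundance-trended offsets the X-linked median was -0.0136 (60 rose and 96 fell). Over all genes it was then -0.0163, with 2316 called higher and 3801 lower. Between tazemetostat and ipatasertib 146 of 800 rose and 95 fell (18.3% and 11.9%, where 13.6% and 24.2% of all genes did), with a median of 0.12. The X-linked median was 0.02 with total counts (120 rose and 225 fell), against -0.108 over all genes, with 2581 called higher and 8798 lower. With abundance-trended offsets it was -0.0034 (66 rose and 58 fell), against -0.0225 over all genes, with 1647 called higher and 2915 lower.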
